A study of Mus musculus with 18 samples.

Results

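The genes described here are 10 neighbours of Trem2 on mouse chromosome 17 that differ between Trem2 knockout and wild-type brain tissue: Olfr111, Guca1b, Mmut, Mrps10, Polh, Pot1b, Khsrp, Cnpy3, Tbc1d5 and Dpp9. They were picked by symbol out of 18922 genes, because their counts differed between the genotypes across 3 brain regions. The values that chose them are the genotype differences themselves, so these are given below as a description. Calls and p-values of the genotype contrasts say how the genes came to be picked, and none is read as a test of them. All 10 are among the 15329 genes that passed a filter on low counts. Olfr111 and Guca1b passed it through wild-type libraries alone.

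Adult male mice of 8 to 10 weeks, all on a C57Bl6 background, were either wild type for Trem2 or lacked it. Every animal, wild type included, received Rose Bengal at 50 mg/kg into the abdomen and light from a 125 mW laser at 525 nm over a cortical circle 3 mm wide, which clots the vessels there. The brain was taken 7 days after injury and stained with TTC, a dye that leaves dead tissue pale, and 3 regions were dissected: the infarct core, the peri-infarct zone around it and the contralateral site in the uninjured hemisphere. Polyadenylated RNA was sequenced from 3 libraries for each genotype and region, 18 in all. The contralateral samples come from injured animals, and no uninjured animal is analysed here. The labels do not say how the Trem2 allele was made, from which embryonic stem cells, or for how many generations the line was backcrossed. They also do not say whether the libraries with 1 replicate number come from 1 animal, so the p-values measure the spread between these samples.

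Trem2 encodes a lipid-sensing receptor of microglia and other myeloid cells, the phagocytes of the brain. A gene deleted in stem cells of 1 strain and bred onto another stays linked to the donor's DNA around it, and genes in such a flanking segment can differ between the strains in sequence or in expression whatever the deletion does. Here every knockout library carries both the absent Trem2 and whatever DNA lies beside it, so the effect of the lost receptor and that of a linked segment cannot be told apart by this design. The 10 genes themselves have little in common in function: an olfactory receptor, a calcium sensor of photoreceptors, a mitochondrial enzyme, a mitochondrial ribosomal protein, a DNA polymerase, a telomere protein, an RNA-binding protein, a chaperone of Toll-like receptors, a regulator of endosomal sorting and a cytosolic peptidase.

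RefSeq's promoter table (GRCm38.p6, an older build than the GRCm39 that the authors' processing notes name) holds 8 of the 10 genes. The 250 bases before the start are shown for Trem2 as the reference point, for Olfr111 as the gene with the largest genotype difference, for Mrps10 as a gene with higher counts in the knockout, and for Polh and Cnpy3 because both also responded to the lesion. Each reads 5′ to 3′ on the gene's own strand. Capitals mark matches on either strand to 4 motifs: CCAAT, the CCAAT box, which reads ATTGG on the other strand; TATAAA, the TATA box; TGANTCA, a site form of AP-1; and GAGGAAGT, a site form of PU.1, the main transcription factor of myeloid cells. No marked matches overlap.
Trem2, chr17:48346151-48346400, plus strand: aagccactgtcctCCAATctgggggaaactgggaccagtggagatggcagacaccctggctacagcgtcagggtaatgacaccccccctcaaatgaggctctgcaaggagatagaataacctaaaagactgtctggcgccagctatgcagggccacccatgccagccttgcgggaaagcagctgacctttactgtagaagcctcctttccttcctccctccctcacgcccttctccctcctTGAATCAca
Olfr111, chr17:37529707-37529956, plus strand: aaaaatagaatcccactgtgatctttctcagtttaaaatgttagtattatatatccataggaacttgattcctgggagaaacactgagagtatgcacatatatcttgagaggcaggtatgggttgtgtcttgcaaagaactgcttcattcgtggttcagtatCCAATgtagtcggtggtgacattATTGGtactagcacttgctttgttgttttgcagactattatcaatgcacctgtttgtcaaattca
Mrps10, chr17:47368947-47369196, plus strand: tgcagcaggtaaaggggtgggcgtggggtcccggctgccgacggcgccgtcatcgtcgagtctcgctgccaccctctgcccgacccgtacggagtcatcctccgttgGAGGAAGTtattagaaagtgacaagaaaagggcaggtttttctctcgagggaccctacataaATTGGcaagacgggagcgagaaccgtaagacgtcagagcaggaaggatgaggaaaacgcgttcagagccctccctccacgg
Polh, chr17:46202642-46202891, minus strand: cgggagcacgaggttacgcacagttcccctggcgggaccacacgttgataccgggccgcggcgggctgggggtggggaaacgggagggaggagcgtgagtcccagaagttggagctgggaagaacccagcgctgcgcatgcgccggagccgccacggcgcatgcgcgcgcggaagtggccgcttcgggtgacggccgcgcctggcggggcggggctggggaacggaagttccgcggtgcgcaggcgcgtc
Cnpy3, chr17:46752215-46752464, minus strand: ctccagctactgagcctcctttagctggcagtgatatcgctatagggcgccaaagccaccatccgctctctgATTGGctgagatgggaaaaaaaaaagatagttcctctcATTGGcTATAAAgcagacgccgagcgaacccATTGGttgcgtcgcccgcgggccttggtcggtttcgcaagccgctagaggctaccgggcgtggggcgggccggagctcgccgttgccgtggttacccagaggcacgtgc

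The 5 windows differ in base composition. The Polh window holds 35 CG dinucleotides and those of Cnpy3 and Mrps10 hold 21 each, against a median of 6 over the 32851 promoter windows of the table. The Trem2 window holds 4 and the Olfr111 window 2. The AP-1 letters occur once, at the end of the Trem2 window, and in 6.75% of all windows. The PU.1 letters occur once, in the Mrps10 window, and in 2.44% of all windows. CCAAT boxes number 3 in Cnpy3, 2 in Olfr111, 1 in Trem2, 1 in Mrps10 and 0 in Polh, while 33.8% of all windows hold at least 1. The TATA letters are in the Cnpy3 window among these 5, and in 12.4% of all. A match says only that these letters are in the window.

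Trem2 counts followed the genotype labels in all 18 libraries. In the contralateral site the 3 wild-type libraries had 27.9, 20.5 and 28 normalised counts (CPM, counts scaled to TMM-adjusted library sizes) of Trem2 and the knockouts 0.691, 0.902 and 0.337 CPM. The knockouts held 2.53% of the wild-type level there, 2.77% in the peri-infarct zone and 1.44% in the core, or 3.18% without the wild-type core library described next. The remaining Trem2 counts rose in the knockout core as well (log2 fold change 3.29 ± 0.60 SE against the contralateral site, adjusted p = 0.0013), and the deposited tables do not show from which exons they come. Libraries held 16993978 to 18713770 counts. Wild-type core replicate 3 stood apart: its 10 genes with the highest counts made up 15.5% of the total, while this share lay between 3.27 and 5.38% elsewhere, and the 9 excitatory neuron markers summed to 17.4 CPM in it, against at least 2060 CPM in every other library. The labelled cortical tissue thus has its neuron markers in 17 of the 18 libraries. Results that rest on that library are also given without it.

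The genotype differences ran 1 way for 8 genes and the other way for 2. Olfr111, Guca1b, Polh, Pot1b, Khsrp, Cnpy3, Tbc1d5 and Dpp9 had lower mean counts in the knockout in all 3 regions, and Mmut and Mrps10 had higher ones. Region by region, none of the 10 passed an adjusted p of 0.05 in edgeR's quasi-likelihood test over all genes, although all 10 had an unadjusted p under 0.05 in each region, beside 2.96%, 3.23% and 11.9% of all genes. Genes called over the whole table were 1 in the contralateral site (0.00652% of 15329), 1 in the peri-infarct zone (0.00652%) and 2 in the core (0.013%). DESeq2 called 2, 3 and 8 of the 10 in these regions, and limma-voom 0, 0 and 0. Without wild-type core replicate 3, edgeR called 1, 3 and 9 of the 10, beside 0.0389%, 0.117% and 3.06% of all genes. The mean of the 3 regional differences, a contrast added after the data were seen, called all 10, beside 35 genes in all (0.228%), and again all 10 without wild-type core replicate 3, beside 7.46% of all genes. Leaving out 1 library at a time gave 4 to 10, with 4 without wild-type contralateral replicate 3, and log2(TPM + 1) and log2(TPM + 0.1) gave 7 and 5. The contrast counts the libraries of the 3 regions as independent, although wild-type contralateral and peri-infarct libraries with 1 number vary together, so its SE may be too small. With the replicate number as a block it called 9. It uses the same differences that chose the members. Its largest adjusted p among the members was that of Mrps10, 0.033. The shares of 0.228% and 7.46% of all genes also apply to the pathway lists below. Within 100 tested genes of Trem2, Vegfa passed as well (adjusted p = 0.0032) and is not on the list. The genes just past the threshold there were Tnfrsf21 with an adjusted p of 0.095, Fer with 0.13 and Vmac with 0.14. Read as separate libraries, the genotypes were apart for all 10 genes in the contralateral site, beside 6.43% of all genes higher and 10.5% lower in the knockout, and for all 10 in the core, beside 5.16% and 5.09%. In the peri-infarct zone they were apart for 9, beside 8.02% and 9.27%.

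**Figure D1:**
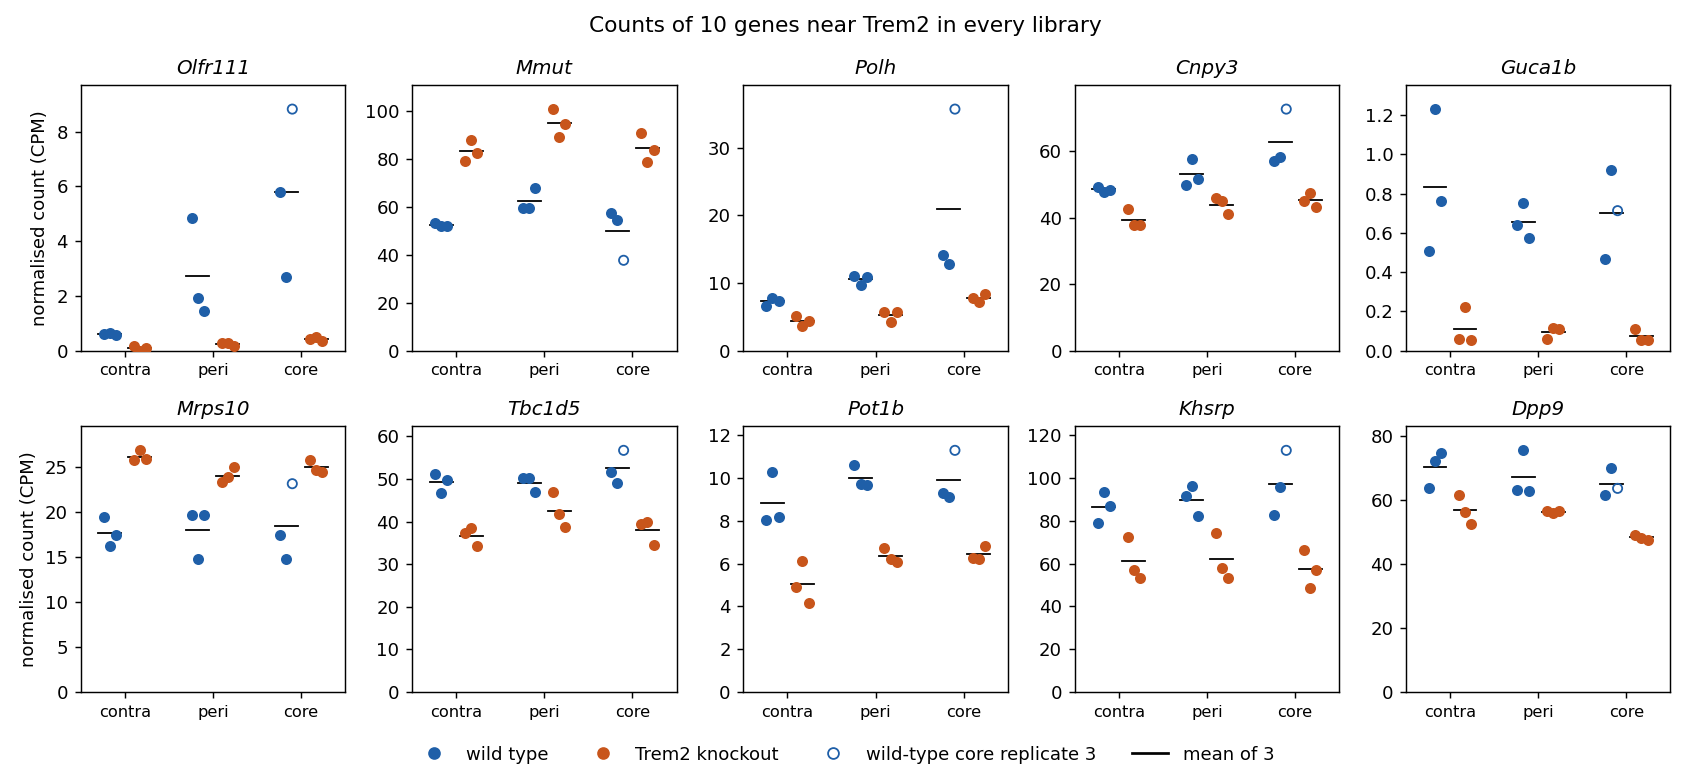
Normalised counts (CPM, linear axis from 0) of the 10 genes in each of the 18 libraries by region (contralateral, peri-infarct, core); points are libraries, bars the mean of 3, and the open circle is wild-type core replicate 3. Wild-type and knockout points are apart in all 3 regions for 9 genes, and those of Tbc1d5 meet in the peri-infarct zone.

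Olfr111 is 1 of the many genes for olfactory receptors, the odour-binding receptors of the nose. Its counts in the contralateral site were low, 0.622, 0.645 and 0.587 CPM in wild type and 0.173, 0 and 0.112 CPM in the knockout. In the peri-infarct zone wild type had 4.84, 1.91 and 1.44 CPM and the knockout 0.288, 0.29 and 0.166 CPM. In the core wild type had 5.81, 2.7 and 8.82 CPM and the knockout 0.443, 0.501 and 0.37 CPM. The genotypes did not overlap in any region. These are small numbers of reads: 5 counts against 32 in the contralateral site, a knockout level of 15.4% of wild type with an exact 95% counting interval of 4.65 to 39.5%. The level was 9.08% in the peri-infarct zone and 7.58% in the core (10.3% without wild-type core replicate 3). Such intervals cover counting error alone.

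The table holds 158 olfactory receptor genes, of which 7 passed the filter on low counts. Olfr111 was the only 1 of these 7 with genotypes apart in all 3 regions. The other 6, none of them on chromosome 17, had mean log2 differences from -1.43 (Olfr78) to 0.79 (Olfr1393). The 5 markers of olfactory neurons summed to 62.7 to 175 CPM over all libraries. Olfr110, a gene of the same family that did not pass the filter, had 28.5 counts in the wild-type core and 3.61 in the knockout core. Its counts were not whole, and part of them may be reads shared with a gene of like sequence, Olfr111 among them. The counts of Olfr111 were not whole either in any wild-type peri-infarct or core library, such as 82.74 in peri-infarct replicate 1 and 135.57 in core replicate 3. Part of them may be shared reads as well.

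Guca1b encodes a guanylate cyclase activating protein, a calcium sensor of rods and cones. It had 0.509, 1.23 and 0.764 CPM in the wild-type contralateral site and 0.0575, 0.225 and 0.0562 CPM in the knockout. The peri-infarct values were 0.641, 0.753 and 0.575 CPM against 0.0576, 0.116 and 0.111 CPM. In the core they were 0.465, 0.919 and 0.713 CPM against 0.111, 0.0557 and 0.0529 CPM. Every wild-type library was above every knockout library of its region. The knockout held 13.5% of the wild-type level in the contralateral site (exact 95% counting interval 4.75 to 32.2%, 6 counts against 43), 14.4% in the peri-infarct zone and 10.5% in the core. Of the 9 other listed genes of photoreceptor cyclic GMP signalling, 8 are in the table and 3 were tested. None of these 3 was called by genotype, while Guca1a, the paralogue that follows Guca1b along the chromosome, had log2 differences of -0.24, -1.58 and -2.51 in the 3 regions. The 6 retina markers summed to no more than 4.52 CPM in any library.

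Mmut encodes methylmalonyl-CoA mutase, the mitochondrial enzyme that uses vitamin B12 to pass propionate carbon into the citric acid cycle. The contralateral values were 53.5, 52.1 and 52 CPM in wild type and 79.4, 88.1 and 82.7 CPM in the knockout. In the peri-infarct zone they were 59.5, 59.7 and 68.1 CPM against 101, 89.5 and 94.6 CPM. The core values were 57.6, 54.7 and 37.8 CPM against 91.1, 79 and 83.8 CPM, the 37.8 CPM being that of wild-type core replicate 3. The lowest knockout library of any region, at 79 CPM, was above the highest wild-type library of all regions, at 68.1 CPM. The knockout held 159% of the wild-type level in the contralateral site, 152% in the peri-infarct zone and 169% in the core, or 151% without replicate 3. Of the 13 other tested genes of propionate and cobalamin metabolism, none was called by genotype in the mean over regions and their median log2 difference was 0.05, against -0.01 over all genes. Without wild-type core replicate 3, 2 of the 13 were called higher: Pccb, a subunit of propionyl-CoA carboxylase (log2 0.16 ± 0.04 SE), and Mmab, an enzyme that makes the B12 cofactor (0.32 ± 0.08). In that setting 7.46% of all genes were called, in either direction.

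Mrps10, a protein of the small subunit of the mitochondrial ribosome, was the other gene with higher counts in the knockout. Wild type had 19.4, 16.2 and 17.4 CPM in the contralateral site, and the knockout 25.7, 26.8 and 25.8 CPM. In the peri-infarct zone the values were 19.6, 14.8 and 19.6 CPM against 23.3, 23.8 and 24.9 CPM. In the core they were 17.4, 14.8 and 23.1 CPM against 25.7, 24.6 and 24.4 CPM. The groups did not overlap, and the knockout level was 147%, 133% and 135% of wild type. Without wild-type core replicate 3, which had the 23.1 CPM, the core level was 154%. None of the 32 other small-subunit genes was called by genotype in the mean over regions, and their median log2 difference was -0.01. Mrps6 was called higher without wild-type core replicate 3 (log2 0.24 ± 0.06 SE), beside 7.46% of all genes called. Mrps10 and Guca1b are next to each other in the order of tested genes, yet the first was higher and the second lower in the knockout.

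**Figure D2:**
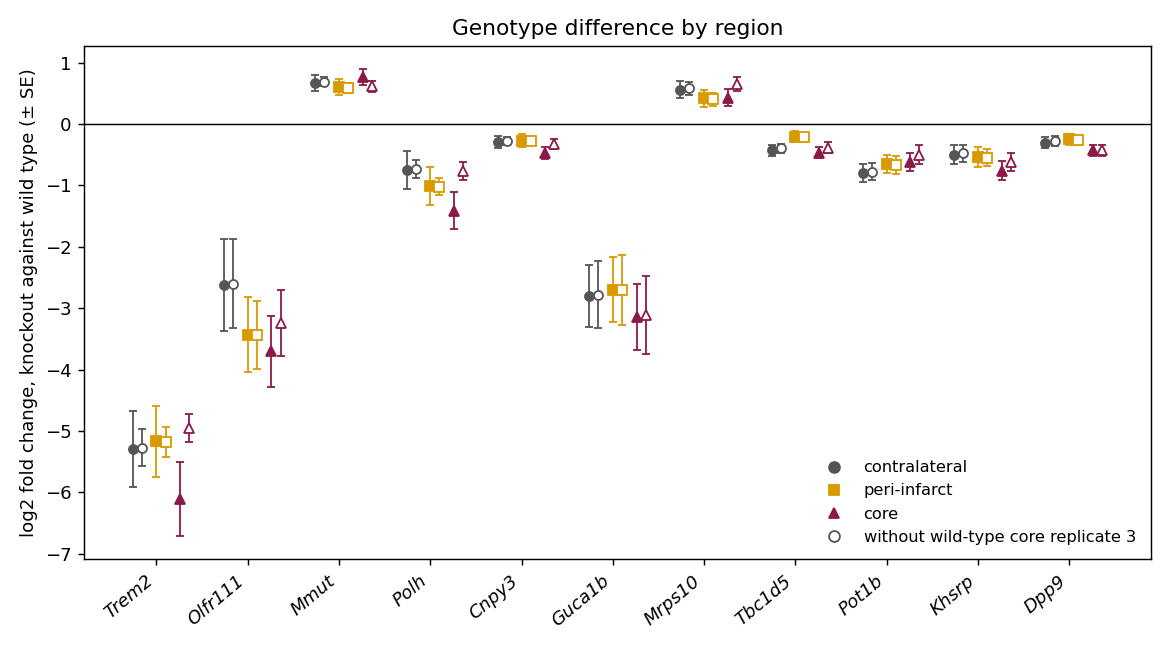
Genotype difference of Trem2 and the 10 genes in each region, as the log2 fold change of knockout against wild type; bars are ± SE from the edgeR fit, filled symbols use all 18 libraries and open symbols leave out wild-type core replicate 3. Mmut and Mrps10 lie above 0 and the other 8 genes below it in every region, and the core value of Polh moves from -1.41 to -0.77 without that library.

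Polh and Pot1b act on DNA. Polh, the polymerase that copies past ultraviolet damage, had 6.67, 7.86 and 7.4 CPM in the wild-type contralateral site and 5.06, 3.61 and 4.33 CPM in the knockout. The peri-infarct values were 11.1, 9.73 and 10.9 CPM against 5.76, 4.29 and 5.76 CPM. The core values were 14.2, 12.8 and 35.7 CPM against 7.86, 7.24 and 8.41 CPM, and the 35.7 CPM again belongs to wild-type core replicate 3. The knockout was below wild type in every region, at 59.3%, 49.7% and 37.5% of its level. The core share was 57.9% without replicate 3, a move of the log2 difference from -1.41 to -0.77. Of the 10 other translesion synthesis genes tested, none was called by genotype in the mean over regions (median log2 difference -0.07).

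Pot1b, a shelterin subunit that binds the single strand at chromosome ends, had 8.02, 10.3 and 8.16 CPM in the wild-type contralateral site and 4.89, 6.14 and 4.16 CPM in the knockout. Peri-infarct values were 10.6, 9.73 and 9.67 CPM against 6.73, 6.2 and 6.09 CPM. Core values were 9.3, 9.13 and 11.3 CPM against 6.25, 6.24 and 6.82 CPM. No libraries overlapped, and the knockout level was 57.4%, 63.5% and 65% of wild type, with 69.9% in the core without wild-type core replicate 3. Its counts were not whole in some libraries, such as 141.52 in wild-type contralateral replicate 1. The paralogue Pot1a, whose counts were whole in every library, stood at 99.5%, 98.7% and 103% of wild type. None of the 6 other shelterin genes was called by genotype in the mean over regions.

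Khsrp binds AU-rich elements of messenger RNAs and promotes their decay. The contralateral values were 78.8, 93.5 and 86.9 CPM in wild type and 72.6, 57.1 and 53.4 CPM in the knockout. Peri-infarct values were 91.6, 96.1 and 82.3 CPM against 74.4, 58.1 and 53.5 CPM, and core values 82.9, 95.9 and 113 CPM against 66.5, 48.7 and 57 CPM. Replicate 1 was the highest knockout library in every region, and it still lay below all wild-type libraries of its region. The knockout level was 70.6%, 68.9% and 58.9% of wild type, with 64.2% in the core without wild-type core replicate 3. None of the 10 other genes of AU-rich element binding and decay was called by genotype in the mean over regions, and their median log2 difference was -0.02.

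Cnpy3, Tbc1d5 and Dpp9 had the smallest differences, with knockout levels between 72.2% and 86.4% of wild type. Cnpy3, which helps Toll-like receptors fold in the endoplasmic reticulum, had 49.3, 47.9 and 48.4 CPM in the wild-type contralateral site and 42.7, 37.7 and 37.9 CPM in the knockout. Peri-infarct values were 49.8, 57.6 and 51.7 CPM against 45.8, 44.9 and 41.2 CPM, and core values 57.2, 58.3 and 72.7 CPM against 45.1, 47.4 and 43.3 CPM. The genotypes were apart in each region, with knockout levels of 81.2%, 82.9% and 72.2%, or 78.4% in the core without wild-type core replicate 3. None of the 11 other listed genes, the Toll-like receptors and their folding partners, was called by genotype in the mean over regions. Tlr2 (log2 -0.74 ± 0.14 SE) and Tlr7 (-0.38 ± 0.10) were called lower without wild-type core replicate 3, beside 7.46% of all genes called.

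Tbc1d5 is a GTPase-activating protein that acts with the retromer, the complex that returns cargo from endosomes, on the small GTPase Rab7. It was the 1 member whose genotypes overlapped in a region. The contralateral values were 51.2, 46.8 and 49.7 CPM in wild type and 37.2, 38.4 and 34.3 CPM in the knockout, and core values 51.7, 49.1 and 56.7 CPM against 39.3, 40 and 34.6 CPM. In the peri-infarct zone wild type had 50.2, 50.2 and 47 CPM and the knockout 47, 41.7 and 38.6 CPM, so the highest knockout library and the lowest wild-type library were equal to the digits given. The knockout level was 74.5%, 86.4% and 72.3% of wild type, with 75.3% in the core without wild-type core replicate 3. None of the 15 other retromer and Rab7 genes was called by genotype in the mean over regions. Rab7b alone among them was called lower without wild-type core replicate 3 (log2 -0.73 ± 0.18 SE), beside 7.46% of all genes called.

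Dpp9 is a cytosolic dipeptidyl peptidase that restrains NLRP1 inflammasome sensors. Wild type had 63.7, 72.4 and 74.8 CPM in the contralateral site and the knockout 61.7, 56.3 and 52.5 CPM. Peri-infarct values were 63.1, 75.6 and 62.9 CPM against 56.7, 56 and 56.6 CPM, and core values 61.5, 70.2 and 63.7 CPM against 49, 48.3 and 47.7 CPM. The gap between the nearest libraries was narrowest in the contralateral site, 63.7 against 61.7 CPM. The knockout level was 80.8%, 84% and 74.2% of wild type, with 73.4% in the core without wild-type core replicate 3. Of 11 other genes of the family and its inflammasome partners, none was called by genotype in the mean over regions. The closest homologue, Dpp8, was called lower without wild-type core replicate 3 (log2 -0.22 ± 0.05 SE), beside 7.46% of all genes called.

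Compared per transcript length, the order of the 10 genes was not the same in the genotypes. In the wild-type contralateral site Cnpy3 came first with 65.6 ± 1.42 TPM (SD, n = 3), the unit that divides counts by transcript length and then by the library's sum, apart from Khsrp (50.8 ± 4.54), Mrps10 (48.1 ± 3.83) and Dpp9 (44.2 ± 3.40), whose neighbours in this order overlapped. Mmut followed with 33.9 ± 0.809 and Tbc1d5 with 20.1 ± 0.859 TPM. Polh (5.48 ± 0.445) and Pot1b (4.58 ± 0.851) overlapped, and Guca1b (0.683 ± 0.340) and Olfr111 (0.343 ± 0.0208) were lowest. In the knockout contralateral site Mrps10 came first with 68.4 ± 2.17 TPM and Mmut second with 52.7 ± 3.79, overlapping Cnpy3 at 52.1 ± 2.89. Cnpy3 had the highest mean in all 3 wild-type regions and Mrps10 in all 3 knockout regions, though in the knockout peri-infarct zone Mrps10 (60.7 ± 2.46) overlapped Mmut (59 ± 4.9). Olfr111 passed Guca1b in the wild-type peri-infarct zone and core, with 1.98 ± 1.33 and 2.57 ± 0.711 TPM against 0.523 ± 0.132 and 0.440 ± 0.219 TPM.

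Position along the chromosome was read as gene order in the RefSeq table, since its build is not that of the counts. Of 744 tested genes on chromosome 17, 539 lie before Trem2 and 204 after it. Before Trem2, Olfr111 is 88 tested genes away, Mmut 86, Polh 51, Cnpy3 28, Mrps10 21 and Guca1b 20. After it, Tbc1d5 is 12 away, Pot1b 22, Dpp9 42 and Khsrp 65. The differences were not ordered by this distance: Guca1b and Olfr111, with mean log2 differences of -2.88 and -3.25, are 20 and 88 genes away, while Tbc1d5, the nearest, had -0.37.

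Mrps10 and Guca1b are adjacent, and 1 tested gene, Cenpq (0.03), lies between Olfr111 and Mmut. Besides members, 17 different tested genes lie directly before or after a member. None of the 17 had genotypes apart in all 3 regions, and their mean log2 differences had a median size of 0.10, as against 0.12 over all genes. Nearby genes that differed in all 3 regions had been picked as members. The lack of such genes among the 17 thus follows in part from that choice. Their sizes ran from 0.01 to 1.44, the highest being that of Guca1a. None of the 17 was called in the mean over regions. H2-M3, before Olfr111, was called without wild-type core replicate 3, beside 7.46% of all genes, with -0.92 in the fit of all libraries. The neighbours of Polh, Gtpbp2 and Xpo5, had -0.09 and -0.14, and those of Khsrp, Gtf2f1 and Slc25a23, -0.03 and 0.14. No tested gene overlaps a member in the RefSeq table, and no source used here says whether the counting was by strand. Around Trem2 itself, Treml1, Treml2, Treml4 and Trem1 were tested and none was called by genotype, with mean log2 differences of 1.38, -0.29, 0.29 and -1.69. Those of Trem1 and Treml2 average unlike regions. In the contralateral site Trem1 had 0 counts in the knockout and 8 in wild type, and Treml2 stood at 48% of wild type, with no overlap. In the core Trem1 stood at 87.8% and Treml2 at 107%, or at 260% and 175% without wild-type core replicate 3.

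Genes whose genotypes were apart in all 3 regions in 1 direction numbered 107 of 15329 (0.698%; 1.4% without wild-type core replicate 3), a measure that was chosen after the data were seen. On chromosome 17 they were 24 of 744 (3.23%), and on the 19 other chromosomes 0.166 to 1.09% of the genes tested on each. Trem2 and 9 of the 10 members are among the 24. Without the members and Trem2, chromosome 17 held 14 of 733 (1.91%), against 0.572% over all other chromosomes. Among the 94 other genes within 50 tested genes of Trem2 there was none, and among the 190 within 100 there were 4: Tnfrsf21, Vegfa, Tnfsf9 and Fer. Genes near Trem2 that differed in all 3 regions had been picked as members, so few could be left, and these 2 counts are a description. Beyond 100 tested genes after Trem2 there was none either, while before it there were 10, out to Gm3435, Tcte3 and 9030025P20Rik at 475 to 477 genes away. In the mean over regions 21 of the 35 called genes lay on chromosome 17 (2.82% of those tested there), and the other 14 (0.0965%) were spread 0 to 3 to a chromosome. Trem2 and all 10 members, which were chosen for this difference, are among the 21.

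**Figure D3:**
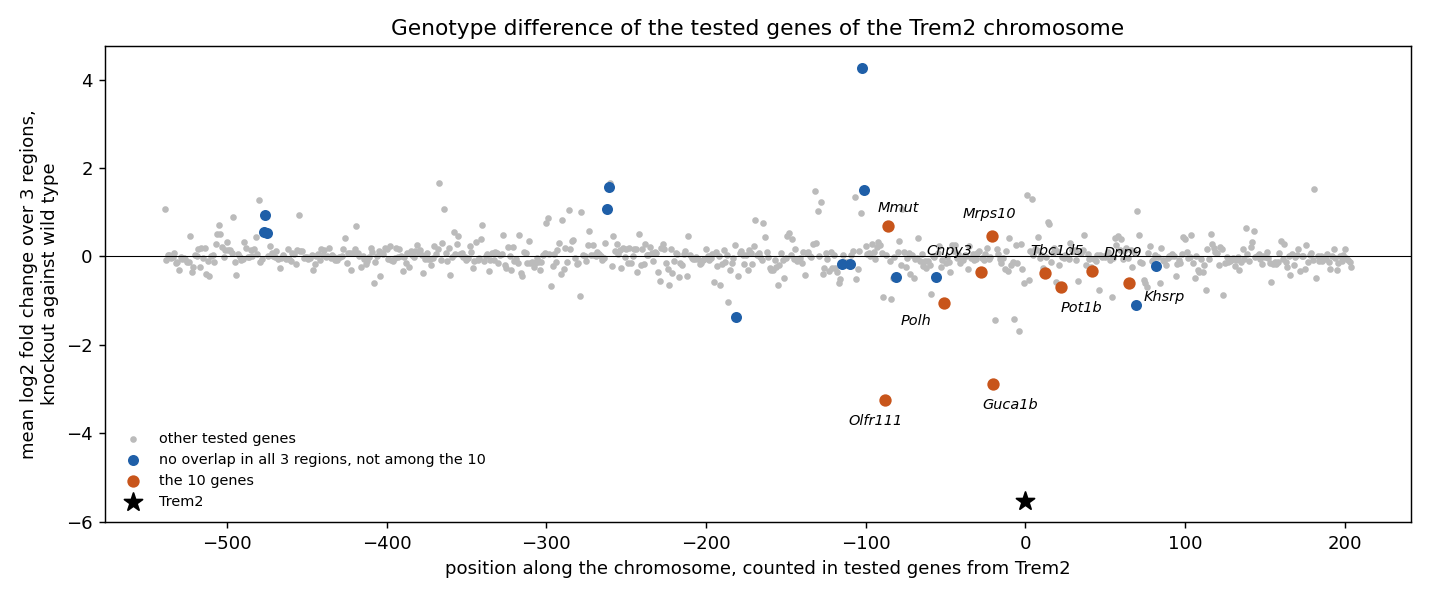
Mean log2 fold change of knockout against wild type over the 3 regions (vertical axis) for the 744 tested genes of the Trem2 chromosome in their order, counted in tested genes from Trem2 (horizontal axis). The 10 genes (orange) lie between 88 genes before and 65 after Trem2 (star, -5.52), and the 14 other genes with genotypes apart in all 3 regions (blue) reach 477 genes before it.

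Several of those other genes on chromosome 17 lie farther away than any member. Glo1, which detoxifies methylglyoxal, had 108 ± 5.27 CPM in the wild-type contralateral site and 218 ± 38.4 CPM in the knockout (SD, n = 3), and a mean log2 difference of 1.07 at 262 genes from Trem2. Its neighbour Dnah8, an axonemal dynein chain, had 1.58. Gm10499 and Gm8909, 102 and 101 genes before Trem2, had 4.27 and 1.5. These 2 lie next to each other, as do Gm3435 (0.93), Tcte3 (0.53) and 9030025P20Rik (0.55), and all 5 were higher in the knockout. Vegfa, the vascular growth factor, 56 genes before Trem2, had -0.48. Notch4, Dhx16 and Abcf1, between 110 and 181 genes away, had -1.38, -0.18 and -0.17, or -0.94, -0.11 and -0.11 without wild-type core replicate 3. In the mean over regions they were not called (edgeR adjusted p = 0.097, 0.28 and 0.24).

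The counts also differed between the genotypes at a gene on another chromosome that is known to differ between C57BL/6 substrains. Nnt, a mitochondrial transhydrogenase on chromosome 13 that carries a deletion in C57BL/6J, had 40.3, 40.5 and 30.1 CPM in the wild-type contralateral site and 20.4, 20.9 and 22 CPM in the knockout. The knockout held 57.1% of the wild-type level there, 57.1% in the peri-infarct zone and 56.8% in the core, with no overlap in any region. The core level was 61.8% without wild-type core replicate 3. Of the other listed substrain genes, Crb1 and Cyfip2 were tested and neither was called in the mean over regions (log2 0.76 ± 0.20 and -0.09 ± 0.30 SE). Both were called without wild-type core replicate 3 (0.77 ± 0.22 and -0.26 ± 0.05), beside 7.46% of all genes called. Sequence variants were not analysed here, and the part of a linked segment in the values of the 10 genes was not tested.

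The comparisons of brain regions within a genotype were not used to choose the members and were tested. Olfr111 and Guca1b are limited here, since no knockout library exceeded 0.501 and 0.225 CPM of them. They passed the filter on low counts through wild-type libraries, and those of Olfr111 were highest in the lesion regions. The wild-type rise of Olfr111 is thus not free of the filter. Wild-type core tissue had higher counts than the contralateral site for 3 of the 10 genes and lower counts for none, beside 40.6% of all genes called, 29.1% higher and 11.5% lower. Olfr111 rose by 3.21 ± 0.56 on the log2 scale (SE, adjusted p = 0.00063), Polh by 1.51 ± 0.30 (adjusted p = 0.0017) and Cnpy3 by 0.37 ± 0.10 (adjusted p = 0.0095). The core libraries of Olfr111 had 2.7 to 8.82 CPM and the contralateral ones 0.587 to 0.645 CPM, with no overlap. The same 3 were called without wild-type core replicate 3, at 2.77 ± 0.52, 0.88 ± 0.15 and 0.25 ± 0.08, beside 40.2% of all genes, so the size of the value for Polh depends on that library. The other 7 genes had log2 fold changes between -0.25 (Guca1b) and 0.17 (Khsrp and Pot1b), and the median size over the 10 was 0.17, against 0.60 over all genes. A fit of these 6 libraries alone called none of the 3. In bulk tissue a change in the number of cells of a type and a change in RNA per cell cannot be told apart. Beside these rises, the 12 homeostatic microglia markers summed to 797 to 872 CPM in the wild-type contralateral site and 3750 to 12000 CPM in the core, and the 10 markers of infiltrating myeloid cells to 83.9 to 215 and 1600 to 9420 CPM. Their part in the responses was not tested.

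In the knockout core none of the 10 genes passed the test, beside 23% of all genes called, 19.7% higher and 3.31% lower, although 4 had an unadjusted p under 0.05. Olfr111 had a log2 fold change of 2.13 ± 0.77 against the contralateral site (adjusted p = 0.061), Polh 0.85 ± 0.31 (0.061), Dpp9 -0.23 ± 0.09 (0.088) and Pot1b 0.35 ± 0.15 (0.12). DESeq2 called 3 of the 10 here and limma-voom 0. Wild-type core replicate 3 enters this comparison only through steps shared by all libraries: the filter, the scaling, the estimate of spread and the adjustment. Without it, Olfr111 (2.12 ± 0.75, adjusted p = 0.026), Polh (0.85 ± 0.15, 0.00017) and Cnpy3 (0.19 ± 0.07, 0.029) were called higher and Dpp9 (-0.24 ± 0.08, 0.022) lower. The knockout libraries held 5 counts of Olfr111 in the contralateral site and 24.4 in the core. Since it passed the filter through wild-type libraries alone, its values and call here are a description. Over all genes 57.4% were called, 29.6% higher and 27.8% lower.

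The peri-infarct zone showed smaller responses. None of the 10 was called in wild type, where 3.27% of all genes were, nor in the knockout, where 4.48% were. An unadjusted p under 0.05 was reached by 1 gene in each: Olfr111 in wild type (log2 2.13 ± 0.55, adjusted p = 0.052) and Tbc1d5 in the knockout (0.21 ± 0.09, adjusted p = 0.29). DESeq2 called 1 of the 10 in wild type and 0 in the knockout, and limma-voom 0 in both. Without wild-type core replicate 3, Olfr111 (2.09 ± 0.49, adjusted p = 0.0072) and Polh (0.50 ± 0.14, 0.021) were called in wild type, beside 19.5% of all genes, and none in the knockout, beside 21.4%.

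**Figure D4:**
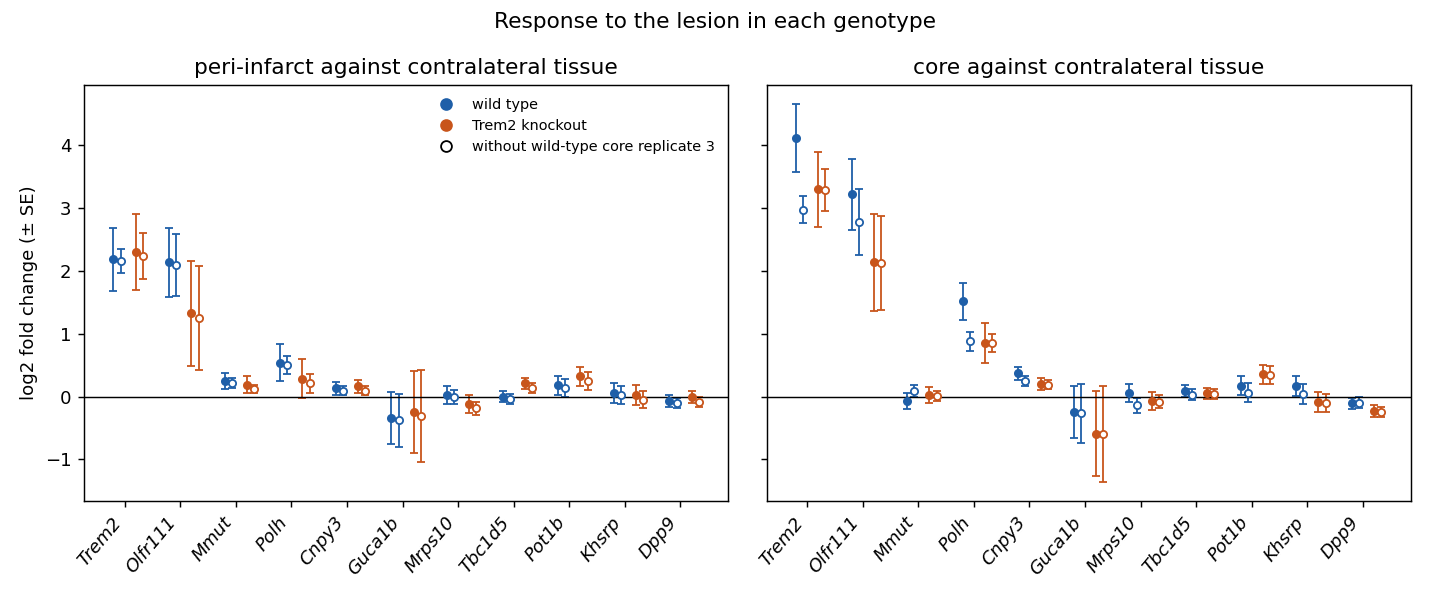
Log2 fold change of the peri-infarct zone (left) and the core (right) against the contralateral site in wild type (blue) and knockout (orange) for Trem2 and the 10 genes; bars are ± SE, and open symbols leave out wild-type core replicate 3. Olfr111 has the largest response of the 10 in both genotypes, though its knockout counts are low, and most of the others lie near 0.

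How far a gene's response to the lesion differed between the genotypes is given by the interaction. It is the difference of the regional genotype differences that chose the members, and choosing genes that differ in all 3 regions favours a small one, so the values are a description and no test is read from them. edgeR called 0 of the 10 in the peri-infarct zone and 0 in the core, and 0 had an unadjusted p under 0.05. Over all genes it called 0 (0%) in either, with 112 (0.731%) and 366 genes (2.39%) under an unadjusted p of 0.05. DESeq2, limma-voom and limma on log2 TPM called 0 of the 10. For Mmut the genotype difference in the core exceeded that in the contralateral site by 0.09 on the log2 scale (95% interval -0.29 to 0.48), and for Tbc1d5 by -0.04 (-0.32 to 0.24). For Olfr111 the value was -1.08, with an interval from -3.44 to 1.28 at its low counts. For Polh it was -0.66 (-1.58 to 0.26), and -0.04 (-0.50 to 0.43) without wild-type core replicate 3.

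The genotype difference of a gene moved between the regions by 0.14 for Mrps10, 0.15 for Mmut, 0.18 for Pot1b and for Dpp9, 0.20 for Cnpy3, 0.26 for Tbc1d5 and for Khsrp and 0.44 for Guca1b on the log2 scale. It moved by 1.08 for Olfr111 and 0.66 for Polh, the 2 with the largest response in the wild-type core, and 0.84 and 0.29 without wild-type core replicate 3. Without that library, the difference moved by 0.05 for Cnpy3, 0.1 for Mmut, 0.14 for Khsrp and 0.16 for Dpp9. It then moved by 0.18 for Tbc1d5, 0.24 for Mrps10, 0.28 for Pot1b and 0.4 for Guca1b, so the order of the genes depends on that library. Cell-type markers moved with genotype in some regions. In the contralateral site the infiltrating myeloid markers summed to 83.9 to 215 CPM in wild type and 32.9 to 63.3 CPM in the knockout, and the 8 lymphocyte markers in the table to 1.47 to 4.76 and 5.07 to 11.7 CPM. The 8 astrocyte markers summed there to 7740 to 8180 and 7480 to 7590 CPM. The 6 choroid plexus markers reached 2320 CPM in a knockout contralateral library and 2160 CPM in a knockout peri-infarct library, against at most 258 CPM in wild type. The homeostatic microglia markers summed to 797 to 872 CPM in the wild-type contralateral site and 641 to 795 CPM in the knockout, and to 2340 to 2780 against 1740 to 2010 CPM in the peri-infarct zone. The olfactory neuron markers summed to 74.9 to 83.7 against 65.2 to 72.2 CPM there, and to 87.2 to 175 against 62.7 to 72 CPM in the core. The 8 striatal neuron markers summed to 200 to 489 CPM in the wild-type contralateral site and 463 to 1030 CPM in the knockout, and to 39.5 to 153 against 160 to 268 CPM in the core. The 9 excitatory neuron markers summed to 3930 and 4200 CPM in the wild-type core without replicate 3. In the knockout core they summed to 2060 to 2810 CPM. Inhibitory neuron markers overlapped in the core, with 2.07 to 401 CPM in wild type and 297 to 549 CPM in the knockout. The part of all these markers in the genotype differences was not tested.

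Other genes of the pathways to which these 10 belong were also compared between the wild-type core and contralateral site. Over all genes, 29.1% were called higher and 11.5% lower in this comparison. Without wild-type core replicate 3, 40.2% were called in either direction. Of the 11 Toll-like receptor and folding genes besides Cnpy3, 10 were called higher in the wild-type core, led by Unc93b1 (log2 2.94 ± 0.37 SE), Tlr1 (3.24 ± 0.41) and Tlr2 (3.47 ± 0.40), and their median was 2.94 against 0.37 for Cnpy3. Of 10 translesion genes besides Polh, 5 were called higher, among them Pcna, the polymerase clamp (2.12 ± 0.40), and Polq (2.03 ± 0.38). Of 15 retromer and Rab7 genes, 9 were called higher, with Rab7b at 4.78 ± 0.60, and of 11 peptidase and inflammasome genes 7 were, with Gsdmd, the pore former, at 3.10 ± 0.45. Of 10 genes of AU-rich element decay, 5 were called higher, among them Zfp36 (2.86 ± 0.47), and 1 lower. Of 13 propionate and cobalamin genes 4 were called higher, among them the B12 carrier Tcn2 (2.69 ± 0.36), and 3 lower. Of 32 small-subunit genes of the mitochondrial ribosome 2 were called higher and 3 lower, and of 6 shelterin genes 1 and 1. Without wild-type core replicate 3 the counts called higher were 10, 4, 9, 6, 5, 4, 2 and 0 in the same order, and sizes were smaller, such as 2.19 ± 0.19 for Unc93b1, 1.16 ± 0.13 for Pcna, 3.58 ± 0.32 for Rab7b, 2.16 ± 0.22 for Gsdmd and 1.89 ± 0.14 for Tcn2. These counts are a description, and the lists were not tested as sets.

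For no member was the gene most like it in pattern over the 18 libraries the tested gene directly before or after it. As Pearson's r of log2 CPM, Olfr111 was closest to Trem2 (0.944) and Nnt (0.934), Mmut to Glo1 (0.937), Pot1b to Trem2 (0.925) and Tbc1d5 to Pot1b (0.866). Guca1b was closest to Arhgef7 (0.879), Khsrp to Rab14 (0.878), Dpp9 to Hspa4 (0.932), Mrps10 to Ankrd39 (0.906), Cnpy3 to Tnfrsf21 (0.945) and Polh to Gtf3c4 (0.976). Of these closest genes, Trem2, Glo1, Pot1b and Tnfrsf21 lie on chromosome 17, and the others on other chromosomes. These are the highest values over all other tested genes, from libraries that share genotype, region and depth. Since the members were chosen for a genotype difference, other genes with such a difference have to rank high.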

How the data were processed

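Expected counts and TPM of 18922 genes, by Entrez ID, are the 2 tables the authors deposited; polyadenylated RNA was used, per the labels. Per the submitters' processing notes, HISAT2 2.0.4, Bowtie2, Subread and the build GRCm39 were used; their roles are not given in the sources used here. The deposited counts are not all whole (3678 genes), and were rounded. They were assumed to be plain counts when the tests were planned, and the same test was kept. Library totals ran from 16993978 to 18713770, and no other sample columns were present (0).

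The main test was edgeR 4.0.16 (filterByExpr by group, TMM, quasi-likelihood with robust fit, 6 group means, all 18 libraries), with Benjamini-Hochberg adjustment over 15329 genes and a threshold of 0.05. CPM use TMM-scaled library sizes. DESeq2 1.42.0, limma 3.58.1 (voom, and log2 TPM with a pseudocount of 1 or 0.1), RLE factors, no filter, single libraries left out, a replicate block and fits of only the groups compared were alternatives. The scripts were tested on simulated data. Gene order comes from a RefSeq table (GRCm38.p6), which matched 18771 IDs and not 151.

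Whether replicate numbers pair libraries was checked by correlating the deviations of those with 1 number. The wild-type contralateral and peri-infarct groups gave 0.398, 0.436 and 0.386, so libraries with 1 number vary together there. This does not show that they come from 1 animal. Contralateral libraries of the 2 genotypes, from different animals, gave 0.318 and 0.355 for numbers 1 and 2. The other 6 pairs of groups checked (contralateral against core in wild type, both lesion regions against contralateral in the knockout, and the genotypes within each region) ranged from -0.451 to 0.355 and each held a value under 0.1.

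The members and gene lists were chosen with earlier results of these data known. Named are the 10 members, Trem2 and its cluster, each member's nearest tested genes, other genes of the chromosome with genotypes apart in all 3 regions, at most 3 called genes per pathway list, the substrain genes, Glo1 and the genes most alike in pattern.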

Additional observations from a re-analysis of the deposited data

How the results depend on the processing

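The 30 regional genotype differences of the 10 genes were recomputed 776 times under the alternatives. None of the 30 had passed the threshold at first, and 31 of the recomputed values did. The direction was the same in all 776, which the choice of the genes by this difference makes likely and which is no sign of stability. The numbers of the 10 genes called moved. By genotype, DESeq2 called 2 in the contralateral site, 3 in the peri-infarct zone and 8 in the core against 0, log2(TPM + 1) called 1 in the core, and a fit of only the groups compared called 1 in the contralateral site. Leaving out single libraries gave 0 to 1, 0 to 3 and 0 to 9, with the highest each time without wild-type core replicate 3. For the mean over regions the range was 4 to 10, the lowest without wild-type contralateral replicate 3, and log2(TPM + 0.1) called 5. Genes of chromosome 17 called in all 3 regions were 1 (Trem2), 0 by limma-voom, 3 by DESeq2 and 0 to 3 with a library left out. Within 100 genes of Trem2, 13 genes other than Trem2 had genotypes apart in all 3 regions by tested genes and 6 by annotated genes.

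For the wild-type peri-infarct zone, DESeq2, log2(TPM + 1) and log2(TPM + 0.1) each called 1 against 0, only the groups compared 2, and libraries left out 0 to 2. For the knockout core, DESeq2 called 3 against 0, log2(TPM + 1) 1, log2(TPM + 0.1) 2, only the groups compared 3, and libraries left out 0 to 4. For the wild-type core, only the groups compared called 0 against 3, and libraries left out 3 to 3. The cause of these moves was not tested. With the replicate number as a block over all groups, 1 of the 10 was called in the knockout core. With a replicate block within a genotype, added after the data were seen, 3 were called in the knockout core and 1 in the wild-type core. The block changed no other call count by over 1.5 times, the wild-type peri-infarct comparison included. At 0 to 21 counts a library, Guca1b and the contralateral Olfr111 values are limited by counting error.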
